A study of Zea mays with 448 samples.

Results

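Starch is built in maize by a short chain of plastid enzymes, most of which were first known from mutants with shrunken, brittle, waxy or sugary kernels. The genes described here encode 8 of these enzymes. They were taken by gene model identifier from 53921 gene models that had at least 1 segregating site, a position at which the maize and the teosinte parent of a cross carry different alleles. They are shrunken2 (sh2, GRMZM2G429899) and brittle2 (bt2, GRMZM2G068506), starch synthase I (ss1, GRMZM2G129451), dull1 (du1, GRMZM2G141399), waxy1 (wx1, GRMZM2G024993), starch branching enzyme I (sbe1, GRMZM2G088753), amylose extender1 (ae1, GRMZM2G032628) and sugary1 (su1, GRMZM2G138060). In each tissue 7 of the 8 had 100 or more F1 reads, the minimum used for the tests of F1s. The remaining gene was wx1, with 45 reads in the ear, 34 in the leaf and 25 in the stem.

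In the pathway, ADP-glucose pyrophosphorylase makes ADP-glucose, the sugar donor of starch, and sh2 and bt2 encode its large and small subunits in the endosperm. Soluble starch synthases, among them those encoded by ss1 and du1, lengthen the glucan chains of amylopectin, and the granule-bound synthase encoded by wx1 makes amylose. Branching enzymes encoded by sbe1 and ae1 cut and rejoin chains to form branch points. The isoamylase encoded by su1 removes misplaced branches so that granules can crystallize. The endosperm is the best studied site of these enzymes, but leaves make starch by day and break it down by night with enzymes of the same families.

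RNA was sequenced from the young ear, the leaf and the stem of F1 hybrids between 6 maize inbreds (B73, CML103, Ki3, Mo17, Oh43 and W22) and 9 inbred lines of teosinte, the wild progenitor of maize (TIL01, TIL03, TIL05, TIL09, TIL10, TIL11, TIL14, TIL15 and TIL25), and of the inbreds themselves. Plants were raised in growth chambers and later moved to a greenhouse, leaf and stem were sampled from young seedlings, the stem with its shoot apical meristem, and ears were taken as silks appeared. Several of the small ears of a teosinte plant were pooled. The comparisons used 28 crosses in 59 F1 libraries of the ear, 29 crosses in 57 of the leaf and 29 crosses in 56 of the stem, beside 30, 29 and 29 libraries of the 15 inbreds. No plant was treated, and an F1 carries both alleles of a gene in the same cells, so that its maize and teosinte reads are exposed to the same trans-acting factors.

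F1 libraries held from 810446 to 2676750 allele reads in the ear, from 1055700 to 2988300 in the leaf and from 1262880 to 3167210 in the stem. The median share of maize reads per library was 50.4% in the ear and 50.5% in the leaf and in the stem. In the cross B73xTIL01, 1 of the 2 libraries of each tissue stood apart, with overall maize shares of 56.9% in the ear, 80.8% in the leaf and 80.1% in the stem, and the other 3 libraries of that cross had 50.4 to 50.6%. No other F1 library exceeded 53.6%. Results that rest on this cross are given with and without it. Tissue markers followed the labels. The phosphoenolpyruvate carboxylase of C4 leaves (GRMZM2G083841) had 1014 RPM (reads scaled to all F1 reads of the tissue) in leaf and less than 1 in the ear and stem, and kn1, a homeobox gene of meristems, had 211 in the ear, 85.7 in the stem and 0.298 in the leaf. Of the ear markers, zag1 had 16.8 RPM and tga1 had 2.32, but ra1 had 3 reads in all. Of the endosperm markers, o2 had no reads in any tissue, and pbf1 and bt1 had at most 0.230 RPM, so the values below describe these genes outside the endosperm.

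The segregating sites of the genes lay, on the AGPv2 build of the B73 genome, between positions 216414840 and 216424014 of chromosome 3 for sh2 (35 sites), 58954361 and 58960481 of chromosome 4 for bt2 (18 sites), 17635563 and 17644440 of chromosome 9 for ss1 (21 sites), 59506781 and 59518224 of chromosome 10 for du1 (89 sites), 23256485 and 23259302 of chromosome 9 for wx1 (13 sites), 63317875 and 63324783 of chromosome 5 for sbe1 (34 sites), 168451727 and 168468370 of chromosome 5 for ae1 (23 sites), and 41369511 and 41378264 of chromosome 4 for su1 (6 sites). All sites lie in annotated transcripts, and whether a site is in coding sequence or a UTR was not analysed here. The sbe1 identifier is shared by a pair of RefSeq genes, so its reads could come from more than 1 locus.

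The first question was where the genes were expressed. Levels were compared between genes as coverage, the F1 reads per segregating site scaled to RPM of the cross, which does not grow with the length of a gene. In the ear sbe1 was highest, with a median coverage over crosses of 39.4 (range 22.3 to 58.0), followed by bt2 at 22.1 (6.58 to 33.4), ss1 at 16.5 (9.08 to 29) and ae1 at 13.3 (5.63 to 25.1). The isoamylase su1 came next at 7.03 (0 to 18.2), then du1 at 6.03 (1.45 to 24.2), sh2 at 0.858 (0 to 2.21) and wx1 at 0.670 (0 to 2.25). Neighbours in this order overlapped in range, whereas every cross had more sbe1 than sh2 or wx1 coverage. In the leaf the order was led by ss1 at a median coverage of 36.5 (13.0 to 61.5), bt2 at 24.1 (5.38 to 66.1) and sbe1 at 19.5 (8.09 to 31.0). The other leaf medians were 4.50 for su1, 1.78 for du1, 0.536 for ae1, 0.324 for sh2 and 0 for wx1. In the stem sbe1 led again at 24.1 (11.6 to 37.3), with bt2 at 17.3, ss1 at 15.1, du1 at 5.36, su1 at 4.43, ae1 at 3.68, sh2 at 0.602 and wx1 at 0.123.

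**Figure D1:**
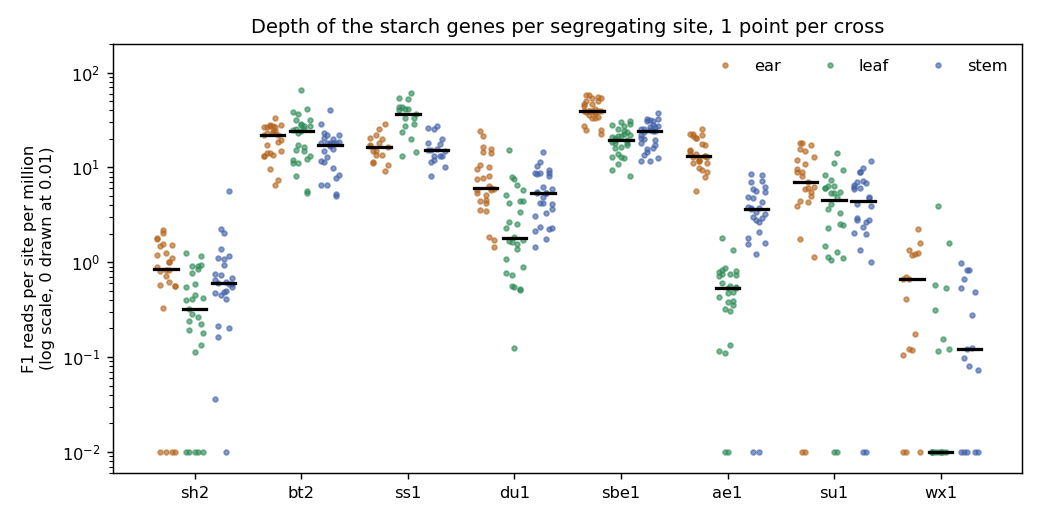
Coverage of the 8 genes in F1s, in RPM per segregating site on a log axis, with 1 point per cross, crosses without reads drawn at the bottom of the axis and bars at the medians. The points of ae1 fall from ear to stem to leaf, those of ss1 are highest in the leaf, and sh2 and wx1 lie lowest in all 3 tissues.

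The largest tissue difference among the genes was that of ae1, the branching enzyme IIb gene. Its reads were 20.3-fold higher in the ear than in the leaf (log2 difference 4.34 ± 0.167 SE, adjusted p = 1.95e-21, edgeR quasi-likelihood test with the cross as block and Benjamini-Hochberg adjustment), 3.33-fold higher in the ear than in the stem and 6.06-fold lower in the leaf than in the stem. All 7 genes tested differed between ear and leaf, as did 77.8% of all genes, 5 with more reads in the ear (39.3% of all genes) and 2 with more in the leaf (38.5%). On the log2 scale du1 was higher in the ear by 1.15 ± 0.246, sh2 by 0.72 ± 0.192, sbe1 by 0.63 ± 0.0846 and su1 by 0.45 ± 0.163, whereas the ear minus leaf difference was -1.47 ± 0.136 for ss1 and -0.53 ± 0.0923 for bt2. Between ear and stem 3 of the 7 passed the test, against 73.2% of all genes, each higher in the ear (34.5% of all genes), namely ae1 (1.74 ± 0.122), sbe1 (0.64 ± 0.0583) and su1 (0.59 ± 0.106). Between leaf and stem 5 of the 7 passed, against 68.1% of all genes. In the leaf ss1 (1.32 ± 0.126) and bt2 (0.69 ± 0.0772) were higher (30.6% of all genes), and in the stem ae1 (-2.60 ± 0.183), du1 (-1.01 ± 0.205) and sh2 (-0.56 ± 0.237) were (37.5%). Fewer cells of a type and less RNA per cell cannot be told apart in these bulk tissues. Scaling by total counts in place of TMM factors moved the median log2 difference of all genes by 0.45 between ear and leaf, by 0.21 between ear and stem and by -0.24 between leaf and stem, and the share of calls with the first tissue higher from 50.5 to 66.0%, from 47.1 to 61.3% and from 45 to 32.3%. Under that scaling the ear minus leaf difference of bt2 was -0.09 and did not pass (adjusted p = 0.383), and that of sbe1 between leaf and stem was -0.22 and passed.

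The next question, the one the F1s were made for, was whether the maize or the teosinte allele gave more transcript. The crosses were the units of this test, but they came from 6 maize and 9 teosinte inbreds. Crosses with a common parent share its allele and are not independent, which the fit does not model. Its errors and adjusted p-values can therefore be too small, and counts of crosses are not counts of separate alleles. The genes of the branching and debranching steps carried all of the differences that passed the test, in opposite directions. The maize allele of sbe1 was higher by 1.83-fold in the ear and by 1.65-fold in the stem. The teosinte allele of ae1 was higher by 1.72-fold in the ear, 1.83-fold in the leaf and 2.43-fold in the stem, and the teosinte allele of su1 was higher by 1.53-fold in the ear and in the stem. In the ear 3 of the 7 genes passed, against 14.9% of the 17670 genes tested, 1 with the maize allele higher (9.27% of all genes) and 2 with the teosinte allele higher (5.6%). In the leaf 1 of 7 passed, with the teosinte allele higher, against 13.1% of 18184 genes (4.26% with teosinte higher). In the stem 3 of 7 passed, against 12.7% of 18446 genes, 1 toward maize (8.5% of all genes) and 2 toward teosinte (4.23%). The median log2 ratio of the 7 genes was 0.17 in the ear, 0.24 in the leaf and -0.09 in the stem, beside 0.04, 0.06 and 0.06 over all genes tested. Without the B73xTIL01 and B73xTIL05 crosses the same numbers of these genes passed, 3, 1 and 3, and between tissues the only change was that du1 passed between ear and stem (0.22, adjusted p = 0.0414, edgeR). With the total of each allele column as library size, the share of all calls with the maize allele higher moved from 62.3 to 54.1% in the ear, from 67.4 to 55.7% in the leaf and from 66.8 to 52.9% in the stem.

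**Figure D2:**
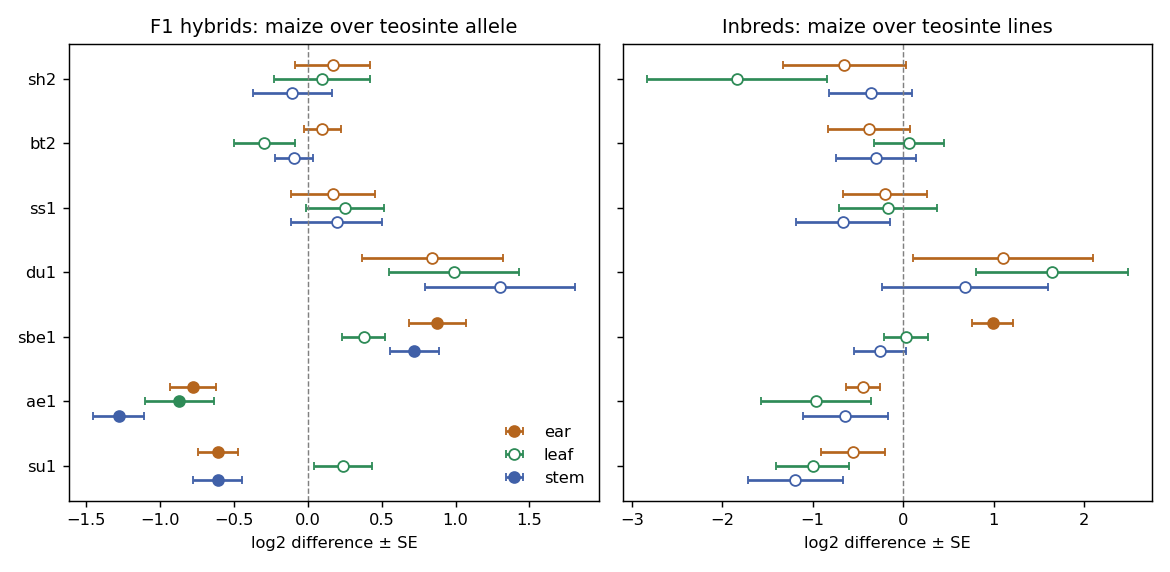
Log2 difference of maize over teosinte with its standard error for the 7 genes with 100 or more F1 reads, from the 2 alleles in F1s and from the 6 maize and 9 teosinte inbreds. Filled points passed the edgeR test at an adjusted p of 0.05: sbe1 and ae1 lie on opposite sides of 0 in the F1s, and the inbred values have wider errors.

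**Figure D3:**
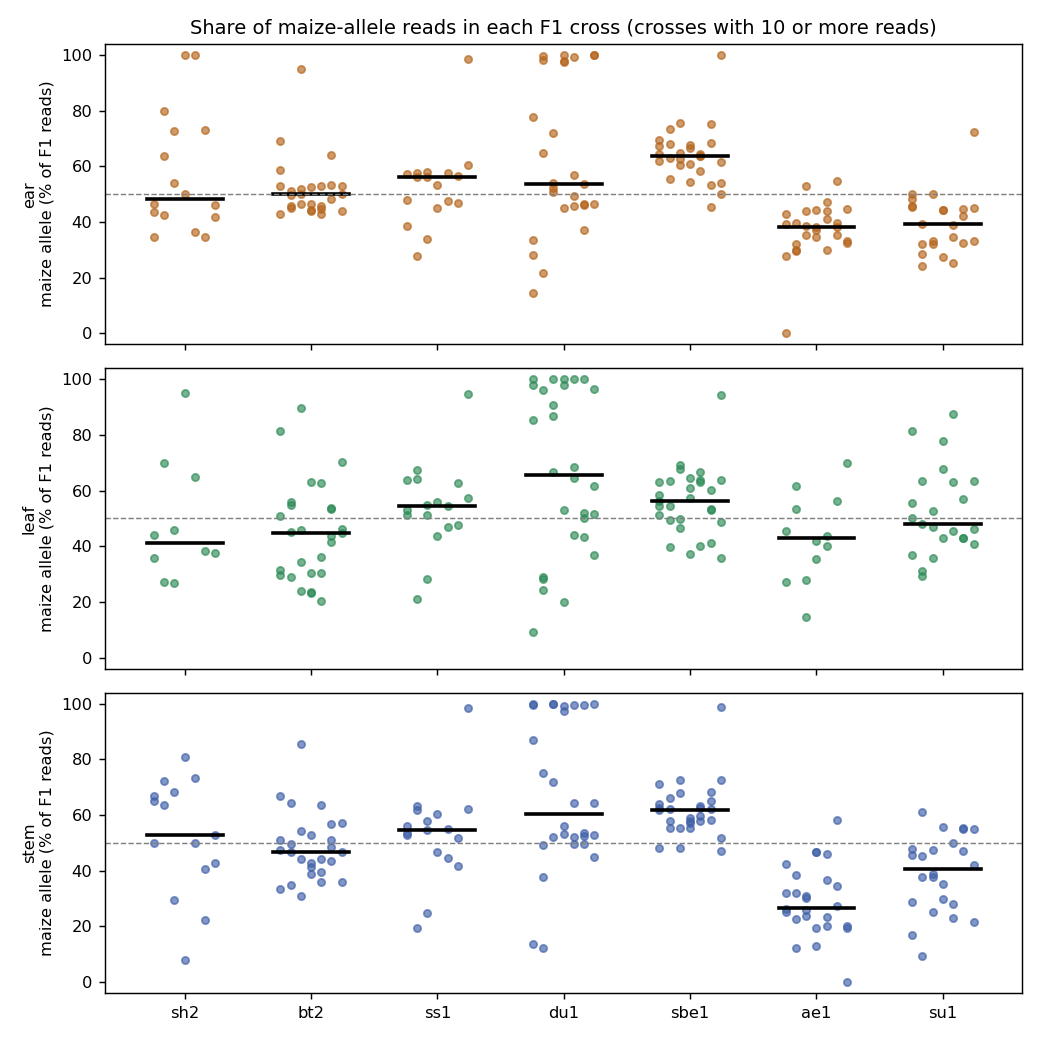
Share of maize reads in each F1 cross with at least 10 reads of a gene, in percent, by tissue, with bars at the medians. Most crosses of ae1 lie below 50% and most of sbe1 above it, and du1 spans nearly the whole axis.

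The subunits of ADP-glucose pyrophosphorylase showed no allele difference that passed over all crosses. bt2 gave 2634 maize and 2407 teosinte reads in the ear, 2671 and 3020 in the leaf, and 2395 and 2443 in the stem. The maize share of bt2 had a median over crosses of 49.9% in the ear (range 42.7 to 94.9%), 44.7% in the leaf (20.4 to 89.6%) and 46.7% in the stem (30.9 to 85.4%). The log2 ratios were 0.10 ± 0.127 (adjusted p = 0.651), -0.29 ± 0.205 (0.379) and -0.09 ± 0.128 (0.690) by edgeR, and the number of crosses with more maize reads was 12 of 26, 10 of 27 and 10 of 27. The cross that stood apart in each tissue was B73xTIL05, the single cross of that teosinte line, with 56 maize and 3 teosinte reads of bt2 in the ear, 69 and 8 in the leaf, and 35 and 6 in the stem. Its overall maize share was 52.6 to 53.1% in its 6 libraries. The libraries of B73xTIL01 with raised shares had 76 maize and 16 teosinte reads of bt2 in the ear, 80 and 0 in the leaf, and 38 and 0 in the stem. Without both crosses the log2 ratios of bt2 were -0.03, -0.47 and -0.19 and did not pass (adjusted p of 0.834, 0.0637 and 0.241, edgeR). The inbred TIL05 likewise had 1, 4 and 2 bt2 reads in the 3 tissues, where the mean depth of the F1s at the same sites would have given 41.8, 50.7 and 38.9. Its level in the leaf was 0.0789 and those of the other 8 teosinte inbreds were 0.625 to 2.02, on a scale on which 1 is the mean depth of the F1s at the sites at which an inbred was counted. Counts in F1s and inbreds came from the same sites and from perfect matches only, so they are not independent.

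Far fewer reads came from sh2, the large subunit gene, with 255 maize and 233 teosinte reads in the ear, 125 and 122 in the leaf, and 226 and 325 in the stem. Its log2 ratios were 0.17 ± 0.252, 0.10 ± 0.326 and -0.10 ± 0.268, none of which passed (adjusted p of 0.709, 0.884 and 0.838, edgeR). The median difference between the 2 libraries of a cross was 14.4 percentage points over the 5 ear crosses that had 10 reads in each, so that single crosses of sh2 are known only roughly at this depth. The cross Oh43xTIL10 had 15 maize and 0 teosinte reads in the ear, 11 and 14 in the leaf, and 12 and 139 in the stem. Its 2 libraries were alike in the ear (8 and 0, 7 and 0) and in the stem (4 and 73, 8 and 66) but not in the leaf, where they had 8 maize and 0 teosinte reads and 3 and 14. The difference between tissues within this cross was not tested. A count of 0 among 15 reads allows a teosinte share of up to 20%, by counting error alone. The inbred TIL10 had 32, 77 and 39 sh2 reads in ear, leaf and stem, and its levels of 2.68, 10.7 and 2.52 were the highest of all teosinte inbreds in each tissue. The crosses of TIL25 had more maize reads in each tissue, with 72 maize and 24 teosinte reads in the ear, 26 and 1 in the leaf, and 50 and 14 in the stem, and the inbred had levels of 0.0506, 0.142 and 0.212.

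Among the chain-lengthening enzymes, ss1 had similar numbers of reads from both alleles. It gave 3998 maize and 3704 teosinte reads in the ear, 9555 and 8149 in the leaf, and 4493 and 4045 in the stem, over the 17 crosses with ss1 sites. The maize share had medians of 56.0, 54.6 and 54.6%, and the log2 ratios of 0.17 ± 0.285, 0.25 ± 0.263 and 0.19 ± 0.307 did not pass (adjusted p of 0.743, 0.583 and 0.728, edgeR). Libraries of a cross agreed closely in ss1, with median differences of 3.48, 1.95 and 3.52 percentage points, and yet the crosses ranged from 27.8 to 98.8% maize in the ear. The extremes went with single parents. In the 1 cross of TIL15 with ss1 sites, ss1 had 485 maize and 6 teosinte reads in the ear, 1210 and 66 in the leaf, and 558 and 9 in the stem. The inbred TIL15 had 8, 6 and 3 reads where the mean depth of the F1s at its sites would have given 334, 700 and 280. In the crosses of Mo17 the teosinte allele was the higher one, with 312 maize and 729 teosinte reads in the ear, 396 and 1175 in the leaf, and 183 and 653 in the stem. Mo17 had the lowest ss1 level of the 6 maize inbreds in each tissue, 0.598, 0.174 and 0.149, beside medians of 1.11, 0.842 and 0.303. As for bt2, the F1 and inbred counts of ss1 share sites and the perfect-match rule and are not independent.

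The widest spread was found in du1, which encodes starch synthase III. Summed over crosses du1 gave 5731 maize and 5370 teosinte reads in the ear, 2730 and 2051 in the leaf, and 5604 and 3827 in the stem, and the maize share of single crosses ran from 14.4 to 100% in the ear (median 53.7%), from 9.33 to 100% in the leaf (65.5%) and from 12.3 to 100% in the stem (60.2%). Its log2 ratios were among the largest of the 7 genes, 0.84 ± 0.477, 0.99 ± 0.440 and 1.30 ± 0.506, but their errors were as well, and none passed (adjusted p of 0.250, 0.142 and 0.0868, edgeR), nor did 0.82, 0.93 and 1.30 without B73xTIL01 and B73xTIL05 (0.308, 0.219 and 0.123). In the stem the ratio passed without the crosses of CML103 (1.59, adjusted p = 0.0284), of TIL11 (1.79, 0.0493) or of TIL14 (1.88, 0.0371), and with DESeq2 it passed in the leaf (1.55, 0.00999) and the stem (1.65, 0.0152). Crosses with a high du1 share had the same few teosinte parents. The 4 crosses of TIL09 gave 890 maize and 12 teosinte reads in the ear, 388 and 5 in the leaf, and 880 and 11 in the stem. That of TIL10 gave 121 and 1, 40 and 0, and 217 and 1, and that of TIL15 gave 189, 101 and 208 maize reads and no teosinte read. For TIL15 a count of 0 allows teosinte shares of up to 1.59% in the ear, 2.97% in the leaf and 1.44% in the stem.

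The crosses of TIL01 gave 407 maize and 41 teosinte du1 reads in the ear, 181 and 23 in the leaf, and 599 and 35 in the stem. Nearly all of those teosinte reads, 39, 19 and 35, came from the 3 libraries of B73xTIL01 that stood apart in their overall maize share, and the other 3 libraries of that cross held 114, 71 and 115 maize reads and no teosinte read. Without the 3 libraries the crosses of TIL01 had 384 and 2, 141 and 4, and 484 and 0 reads. In crosses of the other 5 teosinte lines the alleles were closer to equal, with ear counts of 551 maize and 468 teosinte for TIL03, 26 and 22 for TIL05, 921 and 1187 for TIL11, 1449 and 1942 for TIL14, and 1177 and 1697 for TIL25. In the leaf the 4 crosses of TIL03 with sites were spread from 2 maize and 8 teosinte reads in Oh43xTIL03 to 25 and 1 in the 1 library of B73xTIL03. The low F1 count of an allele went with a low count in the inbred. These counts are not independent, because both come from perfect matches at the same sites. Whether reads of these alleles failed to match was not tested. TIL01 had 14, 4 and 0 du1 reads in ear, leaf and stem where 227, 71.1 and 158 would have matched the mean depth of the F1s at its sites. By the same measure TIL09 had 1, 5 and 6 (of 369, 131 and 274), TIL10 had 0, 5 and 0 (of 173, 61.3 and 123), and TIL15 had 0, 0 and 1 (of 262, 91.6 and 157). The levels of the remaining 5 teosinte inbreds were 0.472 to 1.61 in the ear, 0.504 to 2.33 in the leaf and 0.351 to 0.601 in the stem.

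**Figure D4:**
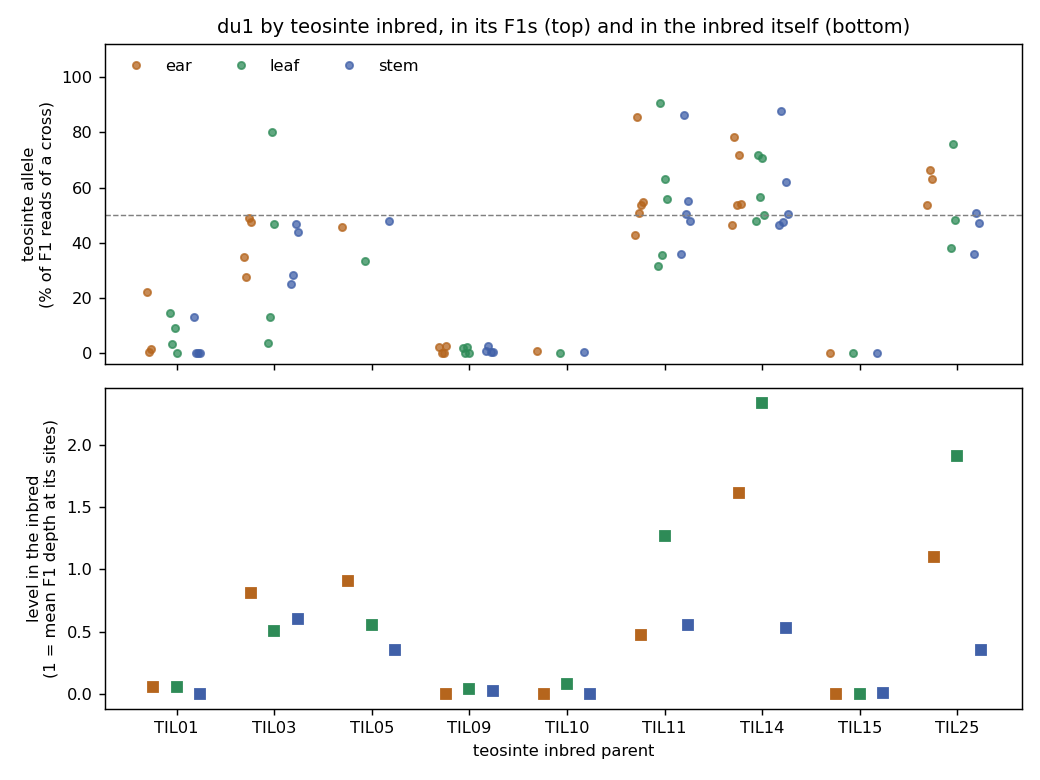
du1 by teosinte line in ear, leaf and stem: the share of teosinte reads in each F1 cross (top) and the level in the inbred relative to F1 depth at its sites (bottom). TIL09, TIL10 and TIL15 lie at or near 0 in both rows, as do TIL01 and most of its crosses, and of the other 5 lines only crosses of TIL03 in the leaf come close to 0.

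On the maize side CML103 had few du1 reads in its F1s. Its crosses gave 161 maize and 699 teosinte reads in the ear, 59 and 251 in the leaf, and 80 and 541 in the stem, and the CML103 inbred had the lowest maize level in the ear (0.401, beside a median of 1.46) and in the stem (0.0743, beside 0.351). In the leaf its level was 1.32, and Mo17 was lowest at 0.804. A linear model of the log2 ratio of a cross on its maize and its teosinte parent, which left out the lines TIL05, TIL10 and TIL15 as the study did, assigned 75.9, 69.5 and 70.8% of the variance of du1 ratios to the teosinte parent in ear, leaf and stem (adjusted p of 0.000511, 0.000604 and 0.000419 by the model's F-test across all genes). The same share for the maize parent was 5.88, 12.8 and 6.86% and did not pass. Without B73xTIL01 the teosinte parent took 80.9, 72.1 and 80.0%, and the maize parent term passed in the stem (adjusted p = 0.00613).

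The granule-bound synthase wx1 was near the limit of detection and was not tested. It had 19 maize and 26 teosinte reads in the ear, 3 and 31 in the leaf, and 10 and 15 in the stem, over 17 crosses with sites. In the stem of the inbreds wx1 had 33 reads in TIL09, 28 in TIL14 and 10 in TIL15, and at most 5 in every other inbred. Endosperm, in which wx1 is best known, was not among the tissues.

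Branching enzyme I, encoded by sbe1, had the deepest counts of the 8 genes in the ear and the stem, and more maize than teosinte reads in most crosses. Its ear reads were 16689 maize and 9052 teosinte, with more maize reads in 27 of 28 crosses and a maize share of 45.4 to 100% (median 63.6%). The stem gave 11577 and 6907 reads, with 26 of 29 crosses toward maize (47.1 to 99.0%, median 61.9%), and the leaf gave 8143 and 6261, with 20 of 29 (35.6 to 94.5%, median 56.4%). The log2 ratios were 0.88 ± 0.193 in the ear (adjusted p = 0.00220), 0.72 ± 0.167 in the stem (0.00379) and 0.38 ± 0.147 in the leaf (0.0884, edgeR). Libraries of the same cross differed by a median of 4.14, 2.98 and 5.24 percentage points in ear, stem and leaf. Of the sites with at least 20 reads, 25 of 30 had more maize reads in the ear and 25 of 28 in the stem. The sites at which teosinte carried the reference allele gave a maize share of 72.1% in the ear, beside 64.1% where maize carried it, and 50.3 and 50.6% over all genes. With only the deepest site of each cross the log2 ratio was 0.65 in the ear (adjusted p = 0.0562) and 0.37 in the stem (0.171), so that the calls of sbe1 were not reached with that site alone. Over all genes this setting lowered the calls from 2628 to 1344 in the ear and from 2349 to 1164 in the stem.

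In the leaf most B73 crosses had a lower maize share of sbe1 than crosses of the other maize inbreds. In the 7 crosses of B73 the maize share was 54.1 to 75.4% in the ear, where all 7 had more maize reads, and 35.6 to 56.4% in the leaf (median 40.1%), where 1 of 7 did. In the stem 6 of these 7 crosses had more maize reads. The cross with more maize reads in the leaf was B73xTIL01, in whose library with the raised overall share sbe1 had 82 maize and 16 teosinte reads, against 82 and 111 in its other library. Crosses of the other 5 maize inbreds had more maize reads in 20 of 21 cases in the ear, 19 of 22 in the leaf and 20 of 22 in the stem. B73 was singled out after these values were seen. The B73 inbred had the highest sbe1 level of the maize inbreds in the ear (1.8) and the lowest in the leaf (0.598). Across all maize parents the maize term of the linear model took 36.0% of the variance of leaf ratios and did not pass (adjusted p = 0.170, F-test). Without the crosses of B73 the leaf ratio was 0.64 and passed (adjusted p = 0.0109, edgeR). That fit follows from the choice of B73 by its values and does not compare maize parents.

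**Figure D5:**
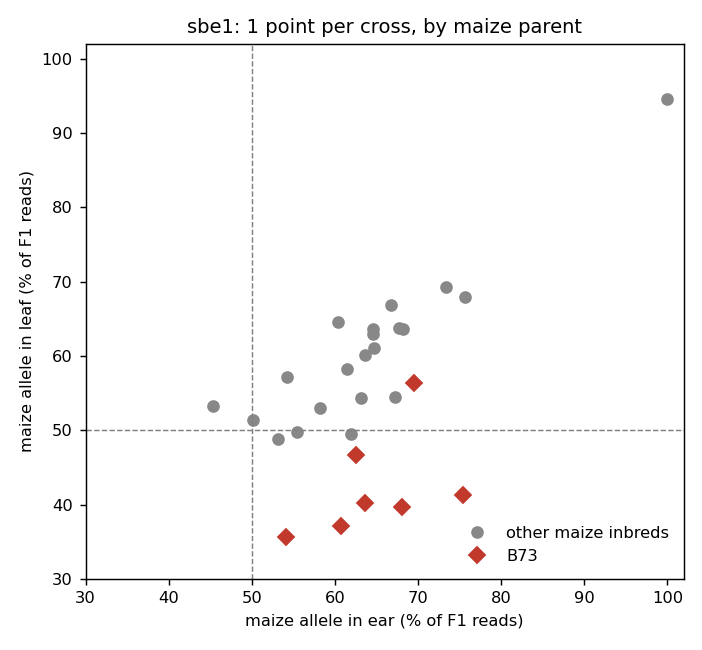
Maize share of sbe1 reads in the leaf (vertical axis) against that in the ear (horizontal axis), in percent, with 1 point per cross that was sampled in both tissues. Crosses of B73 (diamonds) lie above 50% in the ear and, but for 1 cross, below 50% in the leaf, and most crosses of the other maize inbreds lie above 50% in both.

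In the cross Ki3xTIL14 nearly all sbe1 reads carried the maize allele. At its 6 sites the F1 gave 776 maize and 0 teosinte reads in the ear, 242 and 14 in the leaf (1 library), and 760 and 8 in the stem, and the ear count allows a teosinte share of up to 0.387%. The sites were T63321478C, G63321914A, C63321980T, G63322166A, G63322867T and G63323109A, each written as the reference base, the AGPv2 position on chromosome 5 and the other base. At these sites the inbred Ki3 had 506, 221 and 251 reads and TIL14 had 9, 0 and 3. Over all of its 13 sbe1 sites TIL14 had 308, 151 and 153 reads and the lowest level of the 9 teosinte inbreds in each tissue, 0.266, 0.269 and 0.292. Only 9 of those 308 ear reads were found at the 6 sites. Other crosses of TIL14 did have teosinte reads of sbe1. In the ear the 1 library of W22xTIL14 had 380 maize and 177 teosinte reads, and the 2 libraries of Mo17xTIL14 had 329 and 126, and 452 and 158. The log2 ratio of sbe1 without the crosses of any 1 inbred kept its direction and passed in the ear and in the stem for each inbred left out.

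The other branching enzyme gene, ae1, had the teosinte allele higher in nearly every cross of the ear and the stem. In the ear it gave 3135 maize and 5104 teosinte reads, with more teosinte reads in 25 of 27 crosses and a maize share of 0 to 54.8% (median 38.4%). The stem gave 898 and 1770 reads, with 25 of 26 crosses with reads toward teosinte (0 to 58.3%, median 26.7%), and the leaf, where ae1 was scarce, gave 120 and 215, with 21 of 26. Of the 12 leaf crosses with 10 or more reads, 8 had more teosinte and 4 more maize reads (14.7 to 70%, median 42.9%). The log2 ratios were -0.78 ± 0.156 in the ear (adjusted p = 0.000861), -1.28 ± 0.172 in the stem (7.49e-06) and -0.87 ± 0.234 in the leaf (0.0104, edgeR). Of the sites with at least 20 reads, 21 of 22 had more teosinte reads in the ear and 18 of 19 in the stem. Teosinte was also the higher allele at the sites where it carried the reference base, with a maize share of 36.0% in the ear, beside 38.4% at the other sites. The leaf call rests on 335 reads and was lost without Oh43 (adjusted p = 0.121), without TIL25 (0.0658) and with either replicate left out.

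The most extreme ae1 cross was CML103xTIL11, with 0 maize and 131 teosinte reads in the ear, 1 and 3 in the leaf, and 0 and 22 in the stem, at the sites G168451914T, T168458761C and A168463163T of chromosome 5. A count of 0 among 131 reads allows a maize share of up to 2.29%. At the same sites the inbred CML103 had 0 reads in the ear, 2 in the leaf and 36 in the stem, and TIL11 had 56, 0 and 36. The CML103 allele was thus read at these sites in the inbred stem but not in the F1 stem, with a limit of 13.6% of 22 reads. Other sites and crosses did have reads of this allele. Over its 16 ae1 sites the CML103 inbred had 333 ear reads, and its 3 crosses gave 327 maize and 808 teosinte ear reads. In the stem CML103xTIL03 had 97 maize and 56 teosinte reads in 1 library and 57 and 54 in the other. Both CML103xTIL11 and Ki3xTIL14 were chosen for display after their values were seen.

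Isoamylase 1, encoded by su1, had few sites and few reads. The ear gave 398 maize and 599 teosinte reads, with more teosinte reads in 20 of 25 crosses, more maize reads in 1, and a maize share of 24.1 to 72.4% (median 39.4%). The stem gave 268 and 399, with 18 of 26 crosses toward teosinte (9.09 to 60.9%, median 40.4%), and the leaf gave 328 and 261, with 12 toward teosinte and 11 toward maize (29.4 to 87.5%, median 47.8%). The log2 ratios were -0.61 ± 0.135 in the ear (adjusted p = 0.00298), -0.61 ± 0.168 in the stem (0.0166) and 0.24 ± 0.195 in the leaf (0.468, edgeR). Most su1 reads came from 1 position, G41371552C on chromosome 4, with 809 of 997 reads in the ear, 471 of 589 in the leaf and 562 of 667 in the stem, and maize shares of 39.4, 52.7 and 39.1%. Maize carried the reference base at all su1 sites, so the alleles could not be compared with the reference base exchanged. The 5 ear crosses of W22 had no su1 read, and 2 of them had a su1 site. The su1 calls were lost without replicate 2 in the ear (-0.37, adjusted p = 0.165) and, in the stem, without replicate 2 (0.0640), without the crosses of Oh43 (0.173) or of TIL03 (0.0882), and with 2 further crosses added (0.266).

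Allele ratios were then compared between tissues by the interaction of allele and tissue. The ratio of su1 was lower toward maize in the ear than in the leaf by -0.88 ± 0.238 on the log2 scale (adjusted p = 0.0493, edgeR), the 1 of 7 genes that passed, against 1.07% of 16402 genes and 0.665% with the ratio more to maize in the leaf. It did not pass with the total of each allele column as library size (adjusted p = 0.0758), without replicate 1 (0.147) or without replicate 2 (0.719). Between ear and stem and between leaf and stem none of the 7 passed in edgeR or in DESeq2, against 0.0882 and 0.29% of all genes in edgeR, and 1 of the 7 had an unadjusted p under 0.05 in each pair. For sbe1 the ear minus leaf difference of ratios was 0.51 ± 0.256 and for ae1 the ear minus stem difference was 0.50 ± 0.24, neither of which passed (adjusted p of 0.622 and 1).

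Maize and teosinte inbreds were compared as the sums of their libraries, with 6 maize and 9 teosinte inbreds as the samples. The 1 gene that passed was sbe1 in the ear, where the maize inbreds had levels of 0.914 to 1.8 (median 1.25) and the teosinte inbreds 0.266 to 0.997 (median 0.630), with an overlap between Ki3, the lowest maize inbred, and TIL10, the highest teosinte inbred. The log2 difference was 0.99 ± 0.227 (adjusted p = 0.0174, edgeR), and 5.14% of the 16624 genes tested passed in the ear, 1.77% with the maize inbreds higher. It was 0.88 without B73 (adjusted p = 0.0511), and 0.19 (adjusted p = 0.618) when inbreds were scaled by their total depth, which moved the median of all genes by -0.75 in the ear and the share of calls with maize higher from 34.4 to 2.17%. DESeq2 gave a share of 20.8%. In the leaf sbe1 differed by 0.03 ± 0.246 and in the stem by -0.26 ± 0.286. No gene of the 7 passed in the leaf or the stem, where 1.8 and 0.218% of all genes did and where 1 of the 7 had an unadjusted p under 0.05 in each. DESeq2 called 2 of the 7 in the ear, 1 in the leaf and 0 in the stem, where it called 3571 of 16624, 3506 of 16480 and 2598 of 17007 genes. The inbred differences of ae1 were -0.45 ± 0.187 in the ear, -0.97 ± 0.607 in the leaf and -0.64 ± 0.469 in the stem, and those of su1 were -0.55 ± 0.354, -1.0 ± 0.405 and -1.19 ± 0.522. The widest inbred difference in the leaf was that of sh2, at -1.84 ± 0.997, with maize levels of 0.262 to 0.554 and teosinte levels of 0 to 10.7, but its direction rests on TIL10. The other 8 teosinte inbreds had levels of 0 to 0.786, and the teosinte median of 0.266 lay below the maize median of 0.411. Without TIL10, fewer than 100 reads of sh2 were left in the leaf, and a fit with no minimum of reads gave 0.24 for sh2 (adjusted p = 0.877, edgeR) and -0.32 for ae1 (0.757).

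When F1 and inbred reads were summed and sorted into regulatory categories at a false discovery rate of 0.005, su1 in the ear and stem, ae1 in the leaf and du1 in the stem were cis only, meaning that the alleles differed in F1s and in inbreds and that the test found no difference between the 2 ratios. In the ear ae1, sbe1 and du1 were cis plus trans, as were du1 in the leaf and ae1 in the stem, meaning that both differed in the same direction but by unequal amounts. The 2 categories together held 4 of 7 genes in the ear, 2 of 7 in the leaf and 3 of 7 in the stem, against 35.7, 34.7 and 34.7% of all genes classified. The ratios of sbe1 were compensatory in the leaf and of opposite direction in F1s and inbreds in the stem. This sorting treats reads as independent, although a read can be counted at several sites and crosses differ by more than counting error, and du1 entered cis categories from sums in which single inbreds set the difference.

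In the linear model the teosinte parent had an effect on 2 of the 7 genes in the ear, against 22.3% of all genes, with sh2 (71.9% of variance, adjusted p = 0.0112) beside du1. In the leaf it had an effect on 3, against 18.2%, with sh2 (77.9%, 0.0153) and bt2 (49.3%, 0.0421) beside du1, and in the stem on du1 alone, against 20.8%. The sh2 effects are limited by depth, because the model took crosses with any read. Over all crosses, sh2 had 10 or more reads in 16 of the ear and 10 of the leaf. Its models had 8 residual degrees of freedom in each of these tissues. A maize parent effect passed for none in the ear and the leaf, against 13.3 and 11.6% of all genes, and for ss1 in the stem (49.5%, adjusted p = 0.0383, with 3 residual degrees of freedom), against 12.8%. Without B73xTIL01 the effect on ss1 did not pass (adjusted p = 0.0771).

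A list of 20 other gene models of starch metabolism, written down by identifier and not by their values, was used to place these results. It also held families beyond those of the genes above, such as alpha-glucan phosphorylase and the bt1 ADP-glucose transporter, an endosperm marker here. Of the 19 with enough reads, 4 passed the allele test in the ear (14.9% of all genes), 2 in the leaf (13.1%) and 3 in the stem (12.7%), all with the maize allele higher but 1 in the stem. Their median log2 ratios were 0.10, 0.17 and 0.16, beside 0.04, 0.06 and 0.06 over all genes. The alpha-glucan phosphorylase gene pho1 (GRMZM2G074158) had 13513 maize and 10954 teosinte reads in the ear, a log2 ratio of 0.30 ± 0.0437 (adjusted p = 1.93e-05, edgeR), and 0.22 ± 0.0661 in the stem. GRMZM2G027955, which RefSeq lists as AGP2, had ratios of 0.42 ± 0.115 in the ear and 0.41 ± 0.128 in the leaf, and GRMZM2G391936 had 0.47 ± 0.146 in the ear. The ratio of the latter was 0.26 ± 0.129 in the leaf and -0.33 ± 0.118 in the stem, neither of which passed (adjusted p of 0.190 and 0.0614). GRMZM2G073054 passed in all 3 tissues (0.31 ± 0.0652, 0.26 ± 0.0724 and 0.39 ± 0.0846). The debranching enzyme gene iso3 (GRMZM2G150796) had 1132 maize and 1502 teosinte reads in the stem and a ratio of -0.42 ± 0.117 (adjusted p = 0.0163).

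For each gene but wx1, the gene model whose levels over inbreds and tissues were most alike was sought among 16537, as a description over values that share libraries. The Pearson correlations of log2 levels were 0.91 for ss1 with GRMZM5G812926 (45 values), 0.87 for ae1 with GRMZM2G110423 (42), 0.86 for sbe1 with GRMZM2G346920 (33), 0.85 for du1 with GRMZM2G001887 (45), 0.84 for bt2 with GRMZM2G480171 (42), 0.80 for su1 with GRMZM2G174949 (45) and 0.74 for sh2 with GRMZM2G125243 (30). None of the 8 genes was the closest partner of another.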

How the data were processed

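The deposited files hold counts of reads at segregating sites. With Bowtie, the authors kept only reads that matched perfectly to combined pseudo-transcriptomes of both parents, and counted maize and teosinte alleles per library; reads spanning more than 1 site add to each of them. Sites were summed per gene, and F1 tests took genes with 100 or more F1 reads in a tissue. Tests between tissues took genes that reached this in either tissue, and allele ratio comparisons between tissues those that reached it in both. Inbred tests took genes with 100 or more inbred reads, and categories those with 100 or more of each kind. Alleles, tissues and inbreds were compared with edgeR 4.0.16 quasi-likelihood tests (legacy off) in R 4.3.3, on sums over the libraries of a cross or inbred, with Benjamini-Hochberg adjustment at 0.05. F1 fits had the cross as block, allele fits gave both alleles of a cross the same library size, tissue fits used TMM factors, and inbred fits had an offset for the sites counted in each inbred. The F1 fits treated crosses that share an inbred parent as separate samples, although they are not independent. DESeq2 1.42.0 was an alternative. Cross ratios used a pseudocount of 0.5, categories used binomial and Fisher's exact tests with q-values at 0.005, and the parent effects came from weighted linear models. Inbreds were counted only at their sites, so their levels are relative to the mean F1 depth there. F1s and inbreds were counted at the same sites by the same matching rule, so low counts in both are not independent. Tests were checked on simulated data. Other tools were Python 3.11.15, numpy 2.4.6, pandas 2.3.3, scipy 1.17.1 and matplotlib 3.10.9.

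The genes and the lists were chosen with earlier results of these data known. Named pathway genes were those called in any tissue, at most 6 of them. Each genotype had about 2 libraries, which the study calls biological replicates, but TIL03 had 1 leaf and 1 stem library, and both Oh43xTIL10 ear libraries carry the same replicate number. Ki3xTIL03, Oh43xTIL03 and W22xTIL14 had 1 library in the ear. The same held for B73xTIL03 and Ki3xTIL14 in the leaf and for B73xTIL03 and B73xTIL09 in the stem. The crosses CML103xTIL25 and Mo17xTIL25, which have leaf and stem libraries but are not in the study's list of crosses, were left out and added as an alternative. Replicate numbers did not pair the samples on average: deviations of same-numbered libraries of a cross correlated at a mean of -0.04 between ear and leaf, -0.01 between ear and stem and -0.04 between leaf and stem. Between inbreds the means were 0.007, -0.014 and 0.006 in ear, leaf and stem. Single inbred pairs ran from -0.51 to 0.66 in the leaf, where 19 of 91 exceeded 0.1, as did 18 of 91 in the stem. Deviations shared by some inbred libraries thus remain possible. Intervals for a count of 0 use 3 reads of the total and cover counting error only. Alternatives were another scaling, DESeq2, the deepest site, libraries as units, replicate blocks, other thresholds and leaving out each replicate or inbred. The fits without B73xTIL01, without it and B73xTIL05 between tissues, and without TIL10 and a minimum of reads were chosen after seeing the data. No genome or promoter and protein sequence was used here.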

Additional observations from a re-analysis of the deposited data

Results flagged for a closer look

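In 42 groups of inbreds, a value far from the others was sought as a gap to the nearest inbred that is large against the range of the group, and 3 were found, where chance gives about 1 in 20 groups. The level of sh2 in the ear was 1.23 in Oh43 (44 reads), and the next maize inbred had 0.568. The level of sh2 in the leaf was 10.7 in TIL10 (77 reads), and the next teosinte inbred had 0.786. The level of ae1 in the leaf was 7.94 in TIL10 (19 reads), beside 1.99 in the next. The ae1 value rests on few reads, whereas the 77 sh2 reads were the most of any inbred in the leaf, where 7.2 would have matched F1 depth.

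The allele ratio of su1 differed between tissues, with an ear minus leaf difference of -0.88 (SE 0.238, adjusted p = 0.0493, edgeR interaction). It lies close to the threshold and did not pass with either replicate left out.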

How the results depend on the processing

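Replicate numbers did not pair the samples on average, and in fits with a replicate block the number of the 7 genes called went from 3 to 5 between ear and stem, from 1 to 2 between inbreds in the ear and from 0 to 1 between inbreds in the leaf. Libraries without the block gave the same 2 and 1 for inbreds. In the F1 leaf, 1 gene called became 0 at an adjusted p of 0.005, 2 with DESeq2, 3 with the library as block, 0 to 1 without replicate 1 or 2, and 0 to 2 with the crosses of 1 inbred left out. Total counts called 5 genes between ear and stem and turned sbe1 between leaf and stem from 0.03 to -0.22, and leaving out a replicate gave 3 to 5 between ear and stem. The 1 interaction between ear and leaf became 0 with allele column totals and 0 without either replicate. For inbreds, DESeq2 called 2, 1 and 0 in ear, leaf and stem, total depth called 2, 3 and 4, and leaving out 1 inbred gave 0 to 1 in the ear. Some inbred fits of sh2 in the leaf and su1 in the leaf and stem that leave out a replicate or an inbred fell under 100 reads and gave no value. With the deepest site only, the cis categories held 2, 1 and 0 genes, and at 0.05 they held 4 in the leaf. Without weights, 1 teosinte parent effect was left in the ear and 0 maize parent effects in the stem. Over all alternatives, 103 counts of the 7 genes stayed within 1.5 times their value and 28 did not, and 612 single-gene values kept their direction and their side of the threshold, 31 came to pass, 17 no longer passed and 40 turned, of which sbe1 with total counts was the one to pass. Log2 values that turned with neither side passing were the following. Without B73xTIL01 and B73xTIL05, the F1 ratio of bt2 in the ear was -0.028, the ear to stem difference of sh2 -0.067, and the interactions of du1 (ear and leaf) and ss1 (ear and stem) 0.046 and 0.032. With the deepest site the F1 ratios of sh2 were -0.17 in the ear and 0.011 in the stem. Total counts gave 0.058 for ss1 between ear and stem and -0.088 for su1 between leaf and stem, where sbe1 was -0.0024 with DESeq2 and -0.022 with libraries and a replicate block. The interaction of sh2 between ear and leaf was -0.019 with DESeq2, and allele column totals gave 0.0057 for du1 there and 0.030 for ss1 between ear and stem. Total depth gave inbred differences of -0.71 for bt2 and -0.87 for sbe1 in the leaf and -0.11 for du1 in the stem, and the fit without TIL10 and a minimum gave -0.0058 for bt2 and 0.24 for sh2 in the leaf. With a replicate or the crosses of an inbred left out, F1 ratios ran from -0.014 to 0.18 (bt2), -0.078 to 0.55 (sh2) and -0.015 to 0.36 (ss1) in the ear, from -0.0071 to 0.37 (su1) and -0.40 to 0.68 (sh2) in the leaf, and from -0.25 to 0.0095 (bt2) and -0.32 to 0.17 (sh2) in the stem. With a replicate left out, sh2 ran from -0.083 to 0.46 between ear and stem, and the interactions from -0.15 to 0.17 for du1 between ear and leaf (-0.72 for sh2), from -0.15 to 0.20 (su1), -0.011 to 0.26 (sbe1) and -0.11 to 0.044 (ss1) between ear and stem, and from -0.23 to 0.79 for sh2 between leaf and stem. Inbred differences ran from -0.091 to 0.24 (bt2), -0.088 to 0.13 (sbe1) and -0.34 to 0.039 (ss1) in the leaf and from -0.78 to 0.042 for sh2 in the stem, with a replicate or an inbred left out. Over all genes, F1 calls of 2628, 2376 and 2349 in ear, leaf and stem became 1344, 1224 and 1164 with the deepest site and 5338, 4214 and 4303 with the library as block, 1616, 1523 and 826 without replicate 1, 1832, 1095 and 1627 without replicate 2, and 1178 and 1022 in leaf and stem with CML103xTIL25 and Mo17xTIL25. Inbred calls of 854, 296 and 37 among 16624, 16480 and 17007 genes became 3571, 3506 and 2598 with DESeq2, 5305, 6180 and 6810 with total depth, and 2970, 2564 and 935 with libraries. Between ear and stem, 13938 calls among 19044 genes became 14407 with total counts and 14153 with libraries and a replicate block. Depth limits sh2, su1, wx1 and the leaf values of ae1 most. The causes of these changes were not tested.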
